A study of Homo sapiens with 4 samples.

Results

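The genes of the proteasome, the cell's main machine for breaking down ubiquitin-marked proteins, were examined in MCF10A cells with and without HSF1 overexpression. MCF10A is a non-tumorigenic human mammary epithelial line, and HSF1 is the transcription factor that drives the heat shock response. All protein-coding genes whose symbols begin with PSMA to PSMG followed by a number were taken, which gave 49 of the 63856 genes in the count table. Of these, 48 encode subunits, activators, an inhibitor or assembly factors of the proteasome. The remaining gene, PSMC3IP, encodes a meiotic recombination factor and shares only the start of its symbol with a proteasome gene. The 48 genes comprised 8 alpha and 7 beta subunits of the 20S core, 4 beta subunits of the immunoproteasome and related cores, 6 ATPases and 11 other subunits of the 19S cap, 5 activators or inhibitors, and 7 assembly factors.

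Total RNA depleted of ribosomal RNA was sequenced from 2 biological replicates of unmodified cells (wild type) and 2 of cells that stably carried HSF1 cDNA in the lentiviral vector pLVX-Puro (HSF1-pLVX). Both variants were cultured in the same medium with horse serum, insulin, hydrocortisone, EGF and cholera toxin. The overexpressing cells were transduced and selected with puromycin, and libraries of cells with the vector alone were not analysed here, so effects of HSF1 and of the vector cannot be told apart. The study asked what a raised HSF1 level does to the phenotype and gene expression of these cells. HSF1 itself stood at 200.4 and 189.2 CPM (the count of a gene normalised to the size of its library) in wild type libraries and at 982.4 and 998.6 CPM in HSF1-pLVX libraries. Its log2 fold change was 2.35 ± 0.10 (SE, n = 2 per group; edgeR quasi-likelihood test, adjusted p = 1.14e-10).

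Library totals ran from 18688109 to 24184285 counts. Of 15830 genes tested across the genome, 32.7% were called higher and 33.2% were called lower in HSF1-pLVX than in wild type cells (adjusted p of 0.05), so a call is common in this comparison. Over all of them the log2 fold change had a median of 0.02. All 12 mammary epithelial markers passed the filter on low counts, and 4 of them were called higher and 7 lower. Their summed level was 18816 and 18553 CPM in wild type and 10302 and 10964 CPM in HSF1-pLVX libraries. The largest falls in CPM were those of KRT17 (mean 7194 to 1220) and KRT8 (3165 to 335). KRT5, among the 4 called higher, rose from a mean of 2113 to 4592 CPM. Of 8 leukocyte markers, 6 stayed under 1 CPM in all libraries, and PTPRC had 0 counts in each. The summed level of that list nevertheless went from 1.65 and 1.51 CPM in wild type to 60.8 and 85.4 CPM in HSF1-pLVX libraries, almost all of it CD14 (1.17 and 0.538 CPM against 58.6 and 83.2 CPM). Of 8 fibroblast markers, 6 were under 1 CPM in all libraries, and the list summed to between 7.88 and 10.9 CPM in wild type and between 13.9 and 15.0 CPM in HSF1-pLVX libraries. In bulk libraries a change in the number of cells of a kind and a change in RNA per cell cannot be told apart. The part of these shifts in the proteasome values was not tested.

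The 26S proteasome is built from a barrel, the 20S core, and caps that control entry to it. Outer rings of alpha subunits form the gate of the barrel, and inner rings of beta subunits carry the proteolytic sites. The 19S cap recognises ubiquitin chains, removes them, and unfolds the substrate with a ring of ATPases. In cells exposed to interferon, the catalytic beta subunits can be replaced by immunoproteasome subunits, and the PSME1-PSME2 activator can take the place of a 19S cap. Dedicated chaperones, encoded by PSMG1 to PSMG4 for the core and by PSMD5, PSMD9 and PSMD10 for the base of the cap, guide assembly and then leave. Transcription of the subunits is known to be raised together by NFE2L1 when proteasome activity falls, and the related factor NFE2L2 acts on part of them through antioxidant response elements.

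Promoter windows of RefSeq (GRCh38.p14, 250 bases before to 50 after a start) were available for 42 of the 48 genes and were searched for the core of the antioxidant response element, the letters TGACNNNGC on either strand. This core was present in a window of 15 genes (35.7%), against 16.1% of 27305 genes with a window. It is displayed below for 3 genes that moved in different directions: PSME1, which was higher in HSF1-pLVX cells, and the cap subunits PSMD3 and PSMD12, which were lower. Each sequence reads 5′ to 3′ towards the gene, ends at the last base before the counted exons, and has the match in capitals. The windows lie at chr14:24135944-24136157 on the plus strand for PSME1, at chr17:39980557-39980796 on the plus strand for PSMD3, and at chr17:67366628-67366827 on the minus strand for PSMD12.
PSME1: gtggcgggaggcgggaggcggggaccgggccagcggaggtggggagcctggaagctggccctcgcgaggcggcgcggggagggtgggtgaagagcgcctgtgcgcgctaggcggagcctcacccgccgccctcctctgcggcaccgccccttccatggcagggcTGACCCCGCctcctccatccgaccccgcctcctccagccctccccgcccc
PSMD3: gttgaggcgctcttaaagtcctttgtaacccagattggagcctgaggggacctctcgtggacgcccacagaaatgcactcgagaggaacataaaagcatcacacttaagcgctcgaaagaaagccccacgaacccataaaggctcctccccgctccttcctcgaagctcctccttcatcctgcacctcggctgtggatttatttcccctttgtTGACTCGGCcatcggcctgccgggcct
PSMD12: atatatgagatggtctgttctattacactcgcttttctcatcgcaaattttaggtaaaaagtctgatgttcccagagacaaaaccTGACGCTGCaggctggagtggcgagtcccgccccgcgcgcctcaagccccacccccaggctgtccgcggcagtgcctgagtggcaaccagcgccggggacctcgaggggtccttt

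Of the 48 proteasome genes, 42 passed the filter on low counts. In HSF1-pLVX cells 6 were called higher and 21 lower, which makes 27 called genes out of 42 where 65.9% of all genes tested were called. The direction differed by class. Both classes of the 19S cap were mostly lower, with 14 of 16 tested genes called lower and none higher, where 33.2% of all genes tested were called lower. The 20S core was divided, with 4 of 6 tested beta genes and none of 7 alpha genes called lower. All 4 chaperones of the core and both subunits of the PSME1-PSME2 activator were called higher, where 32.7% of all genes tested were called higher. The summed level of the tested proteasome genes went from 4641 and 4470 CPM in wild type to 3741 and 3790 CPM in HSF1-pLVX libraries. Only PSMG1, which was called higher, changed at least 2-fold. Of all 15830 genes tested, 2358 were called higher and 2218 were called lower with a change of at least 2-fold.

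**Figure D1:**
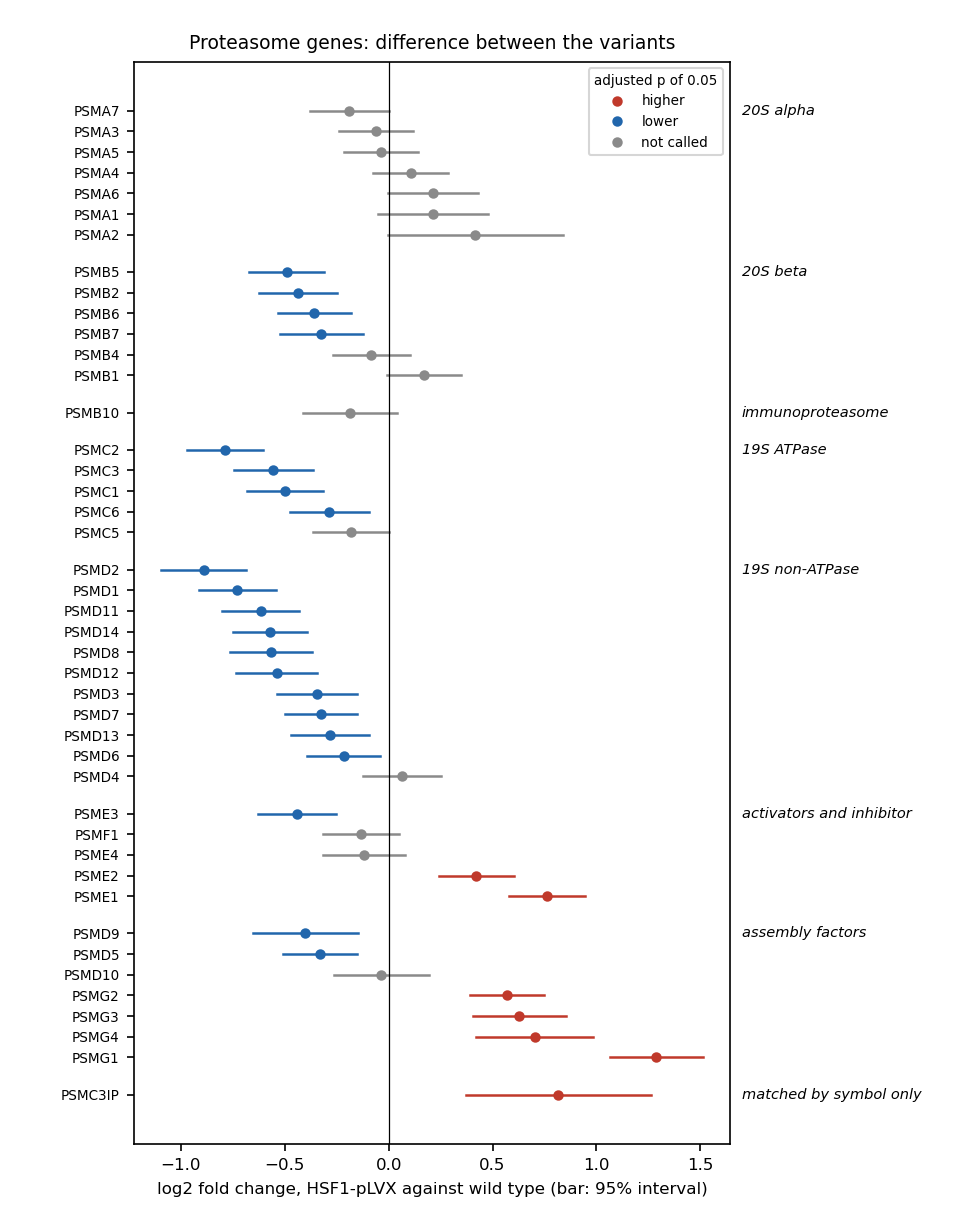
Log2 fold change of each tested gene in HSF1-pLVX against wild type cells (horizontal axis; point, edgeR estimate from 2 libraries per group; bar, 95% confidence interval), grouped by class and coloured by the call at an adjusted p of 0.05. The cap subunits lie mostly left of 0, down to -0.89 for PSMD2, and PSMG1 to PSMG4 and PSME1 and PSME2 lie right of 0, up to 1.29 for PSMG1.

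The catalytic beta subunits were lower in HSF1-pLVX cells. PSMB5, the subunit with chymotrypsin-like activity (chr14:23016543-23035230, hg38), was at 142.2 and 138.9 CPM in wild type libraries and at 97.3 and 102.7 CPM in HSF1-pLVX libraries. PSMB6, the caspase-like subunit, was at 97.01 and 95.64 CPM against 75.4 and 74.9 CPM. PSMB7, the trypsin-like subunit, was at 168.4 and 148.5 CPM against 122.1 and 131.1 CPM. In each of these genes both HSF1-pLVX libraries were below both wild type libraries, as in 41.0% of all genes tested, and the gap was narrowest for PSMB7. The log2 fold changes were -0.49 ± 0.08 for PSMB5 (adjusted p = 0.000143), -0.36 ± 0.08 for PSMB6 (adjusted p = 0.00139) and -0.32 ± 0.09 for PSMB7 (adjusted p = 0.00693; all SE, n = 2 per group, edgeR). PSMB2, which is not catalytic, was the other beta gene called lower, with a mean of 182.8 ± 9.3 CPM in wild type and 135.2 ± 1.9 CPM in HSF1-pLVX cells (SD, n = 2).

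The structural subunits PSMB4 and PSMB1 were not called. PSMB1 had the highest log2 fold change of the class, 0.17, with 115.4 and 113.9 CPM in wild type against 127.8 and 130.0 CPM in HSF1-pLVX libraries, and an adjusted p of 0.0891. Over the 6 tested beta genes the median log2 fold change was -0.34, and the summed level went from 838.2 ± 31.0 to 703.2 ± 17.2 CPM (SD, n = 2). The call of PSMB7 was lost without wild type replicate 1 (log2 fold change -0.22, adjusted p = 0.0932), without HSF1-pLVX replicate 1 (-0.27, adjusted p = 0.0731) and without HSF1-pLVX replicate 2 (-0.37, adjusted p = 0.0864). PSMB1 was called higher when only library size was used for scaling (log2 fold change 0.23, adjusted p = 0.0262).

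The alpha subunits, which form the outer rings and the gate of the core, differed in sign and none was called. The lowest was PSMA7, at 181.5 and 171.9 CPM in wild type and 148.9 and 161.3 CPM in HSF1-pLVX libraries (log2 fold change -0.19 ± 0.09 SE, adjusted p = 0.0759). The highest was PSMA2, at 4.42 and 3.82 CPM against 5.94 and 5.03 CPM (log2 fold change 0.42 ± 0.20 SE, adjusted p = 0.0752). PSMA2 had only 71 to 149 counts per library. It shares 34.6% of its counted bases with other genes, 14.6% on the same strand. The libraries of the variants did not overlap for PSMA7, as in 41.0% of all genes tested (HSF1-pLVX lower). Nor did they for PSMA2, as in 42.1% (HSF1-pLVX higher). Yet the 95% intervals reached from -0.38 to 0.0023 for PSMA7 and from -0.0039 to 0.84 for PSMA2. The interval of PSMA7 left out the estimates for PSMB5 and PSMB2 but not those for PSMB6 and PSMB7. It still overlapped the intervals of PSMB5 (-0.67 to -0.31) and PSMB2 (-0.62 to -0.25). PSMA3, PSMA4 and PSMA5 had log2 fold changes between -0.06 and 0.11. The summed level of the 7 tested alpha genes was 521.5 ± 1.7 CPM in wild type and 512.5 ± 6.8 CPM in HSF1-pLVX cells (SD, n = 2), and their median log2 fold change was 0.11.

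PSMA1 and PSMA6 had log2 fold changes of 0.22 and 0.21. The wild type libraries of PSMA1 lay on either side of the lower HSF1-pLVX library, at 24.8 and 32.7 CPM against 35.6 and 31.0 CPM. Without wild type replicate 2 the gene was called higher (0.41, adjusted p = 0.00253), and PSMA6 was called higher without wild type replicate 1 (0.29, adjusted p = 0.0489) and with scaling by library size only (0.28, adjusted p = 0.0372). Both share counted bases with another gene on the same strand, 24.7% for PSMA1 and 14.1% for PSMA6.

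**Figure D2:**
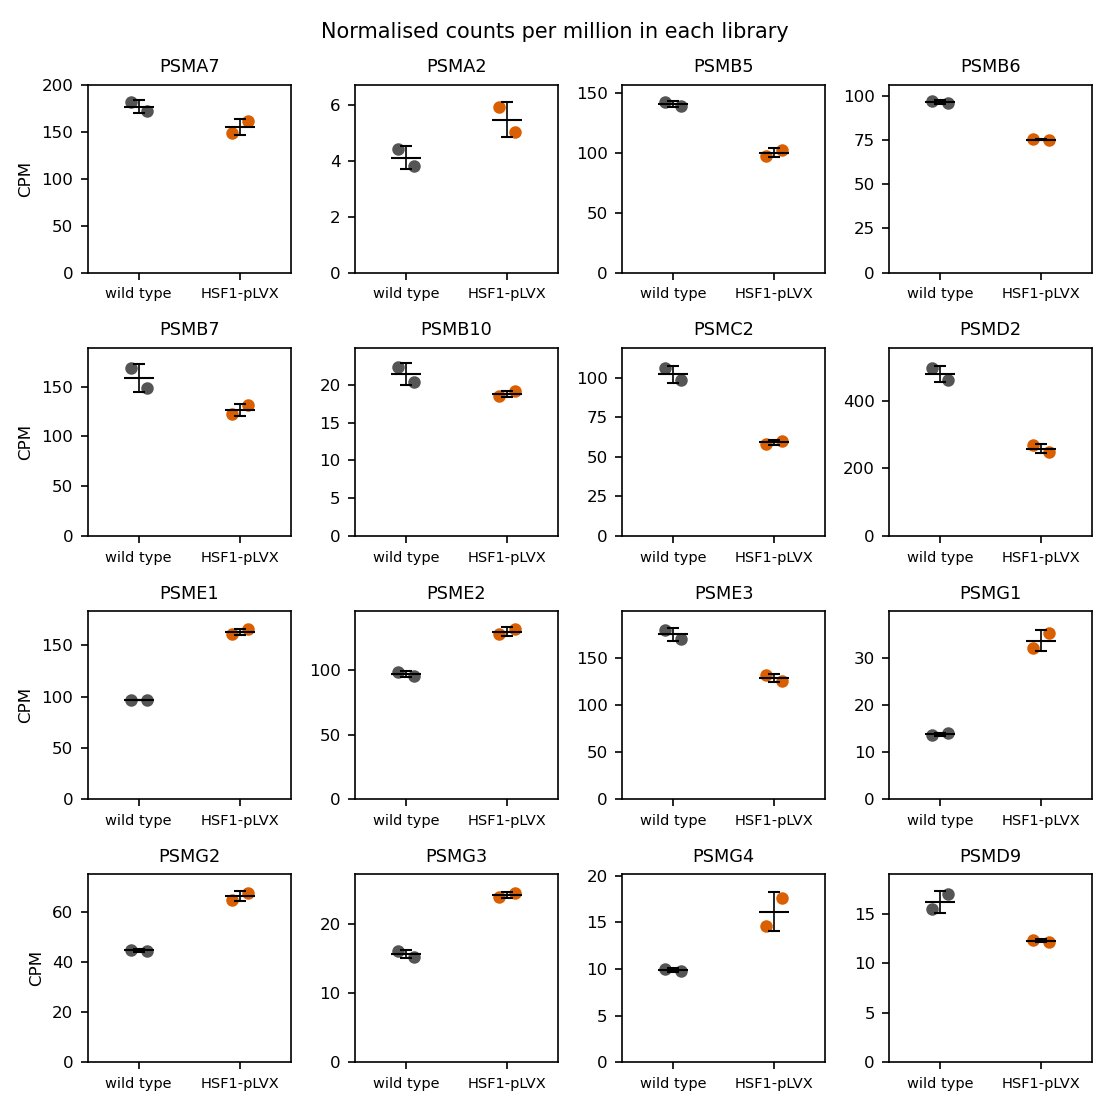
Level of 16 proteasome genes in each library, in CPM (vertical axis, starting at 0 in each panel; points, the 2 libraries of a variant; long bar, mean; short bars, SD, n = 2). The libraries of the variants are separated in every panel. HSF1-pLVX is below wild type for PSMA7, the PSMB genes, PSMC2, PSMD2, PSME3 and PSMD9. It is above wild type for PSMA2, PSME1, PSME2 and PSMG1 to PSMG4. Of all genes tested, 41.0% were separated with HSF1-pLVX lower and 42.1% with it higher. PSMA7, PSMA2 and PSMB10 were not called.

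Of the immunoproteasome subunits, only PSMB10 passed the filter on low counts. This subunit replaces PSMB7 and was at 22.4 and 20.4 CPM in wild type and 18.6 and 19.1 CPM in HSF1-pLVX libraries. Its log2 fold change of -0.19 ± 0.11 (SE, n = 2 per group) did not pass the edgeR test (adjusted p = 0.136), and 34.8% of its counted bases are shared with a gene on the same strand. Per kilobase of exon, the PSMB10 level was 0.128 and 0.132 times that of PSMB7 in wild type and 0.147 and 0.141 times in HSF1-pLVX libraries. PSMB8 and PSMB9, which replace PSMB5 and PSMB6, were listed at 0 counts in all libraries. PSMB11, which is known from the thymus, had 1 count in one HSF1-pLVX library and 0 in the others, and PSMA8, known from the testis, had 0 counts in all libraries.

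The listings at or near 0 need care for genes with copies in the annotation. PSMB8 and PSMB9, in the MHC region of chromosome 6, each stand on 8 rows of the authors' summary table because alternative versions of the region are included, and their counts summed over all entries were between 0 and 1 for PSMB8 and between 2 and 4 for PSMB9. The same holds for obligate subunits of the proteasome. PSMB3, a beta subunit of the core, had 7 and 7 counts in wild type and 31 and 6 counts in HSF1-pLVX libraries, and PSMC4, a cap ATPase, had 7 and 3 counts against 5 and 6 counts. Both stand on 2 rows of the table, and neither passed the filter. Of 957 symbols on more than 1 row, 57.6% had 3 counts or fewer in every library, against 26.2% of 19066 symbols on 1 row. No level of PSMB3, PSMC4, PSMB8 or PSMB9 is therefore read from these counts.

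Of the 5 tested ATPases, which form the unfolding ring of the cap, 4 were called lower in HSF1-pLVX cells. Of all genes tested, 33.2% were called lower. PSMC2 (chr7:103344254-103369395, hg38) had the lowest value, at 106.1 and 98.4 CPM in wild type and 58.2 and 60.4 CPM in HSF1-pLVX libraries. The wild type libraries were far above both HSF1-pLVX libraries, with a log2 fold change of -0.79 ± 0.08 (SE, n = 2 per group; edgeR, adjusted p = 1.42e-06). PSMC3 and PSMC1 had log2 fold changes of -0.55 and -0.50, and PSMC6 one of -0.29. PSMC5 was at 99.8 and 97.5 CPM against 83.6 and 90.6 CPM and was not called (log2 fold change -0.18 ± 0.08 SE, adjusted p = 0.0750). Its interval, from -0.36 to 0.0016, left out the decrease measured for PSMC2.

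The summed level of the 5 genes went from 539.3 ± 16.5 to 388.5 ± 7.3 CPM (SD, n = 2), and their median log2 fold change was -0.50. The call of PSMC6 was lost without wild type replicate 2 (-0.22, adjusted p = 0.0834), without HSF1-pLVX replicate 2 (-0.23, adjusted p = 0.154) and with scaling by library size only (-0.23, adjusted p = 0.0617). Of the counted bases of PSMC1, 75.8% are shared with NRDE2 on the other strand, and the strand setting of the counting is not given in the sources used here. Reads of the 2 genes may therefore be mixed in its value.

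Of the 11 other subunits of the 19S cap, 10 were called lower, where 33.2% of all genes tested were called lower. PSMD2, a scaffold subunit that binds ubiquitin-like domains of shuttle factors (chr3:184298709-184309054, hg38), had the lowest value of all proteasome genes. It was at 495.7 and 462.7 CPM in wild type and at 268.1 and 248.9 CPM in HSF1-pLVX libraries, and its mean fell by 46.1% (log2 fold change -0.89 ± 0.09 SE, n = 2 per group; edgeR, adjusted p = 1.28e-06). PSMD1, the other large scaffold, was at 199.8 and 189.0 CPM against 120.1 and 114.7 CPM (-0.73, adjusted p = 4.40e-06). PSMD14, the deubiquitinase of the cap, had a log2 fold change of -0.57, from 112.2 ± 0.2 to 75.4 ± 2.5 CPM (SD, n = 2). The lid subunits PSMD11, PSMD8, PSMD12, PSMD3, PSMD7, PSMD13 and PSMD6 had log2 fold changes between -0.62 and -0.22. Of the counted bases of PSMD7, 30.7% are shared with a gene on the other strand.

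The exception was PSMD4, a ubiquitin receptor of the cap. It was at 89.9 and 86.6 CPM in wild type and 87.1 and 97.7 CPM in HSF1-pLVX libraries, with overlapping variants and a log2 fold change of 0.06 ± 0.09 (SE, adjusted p = 0.533). Its 95% interval ran from -0.12 to 0.25 and so left out the estimate of every other gene of the class. That interval still overlapped those of PSMD6 (-0.39 to -0.04) and PSMD13 (-0.47 to -0.09). Without HSF1-pLVX replicate 2 the log2 fold change of PSMD4 was -0.01. Over the 11 genes the median log2 fold change was -0.54, and the summed level went from 1799 ± 51 to 1236 ± 7 CPM (SD, n = 2).

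The smaller decreases in this class kept their sign but lost their call in some fits with a library left out. Over these fits the log2 fold change ran from -0.23 to -0.19 for PSMD6 and from -0.34 to -0.23 for PSMD13. It ran from -0.41 to -0.27 for PSMD3 and from -0.38 to -0.28 for PSMD7. PSMD6 (adjusted p = 0.0295) was not called when any one of the 4 libraries was left out (adjusted p from 0.0715 to 0.160), with DESeq2's Wald test (adjusted p = 0.0714), with no filter on low counts (adjusted p = 0.0863) or with scaling by library size only (-0.16, adjusted p = 0.107). PSMD13 was not called without wild type replicate 1 (-0.23, adjusted p = 0.0765), HSF1-pLVX replicate 1 (-0.24, adjusted p = 0.0909) or HSF1-pLVX replicate 2 (-0.31, adjusted p = 0.0767). PSMD3 was not called without HSF1-pLVX replicate 1 (-0.27, adjusted p = 0.0590), nor PSMD7 without HSF1-pLVX replicate 2 (-0.31, adjusted p = 0.0635).

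The activators moved apart. PSME1, the alpha subunit of the interferon-inducible activator PA28 (chr14:24136158-24138967, hg38), was at 96.3 and 96.3 CPM in wild type and at 161.1 and 165.4 CPM in HSF1-pLVX libraries. Its partner PSME2, close by on the same chromosome (chr14:24143362-24147570), was at 98.5 and 95.4 CPM against 127.6 and 132.1 CPM. The groups were clearly separated for both, and the log2 fold changes were 0.76 ± 0.08 for PSME1 (adjusted p = 2.03e-06) and 0.42 ± 0.08 for PSME2 (adjusted p = 0.000500; SE, n = 2 per group, edgeR). PSME3, which forms a separate activator in the nucleus, was at 179.7 and 169.8 CPM against 131.6 and 125.6 CPM and was called lower (-0.44 ± 0.09 SE, adjusted p = 0.000446).

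PSME4, the large activator PA200, and PSMF1, an inhibitor of the core, had log2 fold changes of -0.12 and -0.13 and were not called (adjusted p = 0.274 and 0.181). Per kilobase of exon, PSME1 stood at 1.55 and 1.64 times PSME3 in wild type and at 3.54 and 3.81 times in HSF1-pLVX libraries. The ratio of PSME1 to PSME2 on the same scale was 1.97 and 2.03 against 2.54 and 2.52. On this scale PSMA7 had the highest level of all proteasome genes in wild type libraries, at 103.7 and 98.2 CPM per kilobase, where PSME1 had 54.1 and 54.1. In HSF1-pLVX libraries PSME1 was at 90.4 and 92.9 CPM per kilobase and PSMA7 at 85.1 and 92.2, so that PSME1 came first, by a small margin in replicate 2.

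The chaperones of the 20S core were higher in all 4 cases. PSMG1 (chr21:39174769-39183851, hg38), which pairs with PSMG2 to start the alpha ring, was at 13.53 and 14.05 CPM in wild type and at 32.1 and 35.2 CPM in HSF1-pLVX libraries. Its log2 fold change of 1.29 ± 0.10 (SE, n = 2 per group; edgeR, adjusted p = 7.34e-08) was the largest of the proteasome genes in size, and its mean was higher by 144%. PSMG2 was at 44.9 and 44.2 CPM against 64.8 and 67.6 CPM (0.57, adjusted p = 3.10e-05). PSMG3 and PSMG4 form the second chaperone pair. PSMG3 was at 16.1 and 15.2 CPM against 23.9 and 24.6 CPM (0.63, adjusted p = 0.000102), and PSMG4 at 10.02 and 9.74 CPM against 14.7 and 17.6 CPM (0.70, adjusted p = 0.000286).

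In all 4 genes both HSF1-pLVX libraries were above both wild type libraries, as in 42.1% of all genes tested, and together they went from 83.9 ± 0.9 to 140.2 ± 6.7 CPM (SD, n = 2). The PSMG1 level per kilobase was 0.402 and 0.424 times that of PSMG2 in wild type and 0.662 and 0.696 times in HSF1-pLVX libraries. All 4 were called higher under every alternative that gave a test.

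Of the 3 base chaperones of the 19S cap matched by the symbol rule, 2 were called lower and none higher. Over all genes tested, 33.2% were called lower and 32.7% higher. PSMD9 was at 15.4 and 17.0 CPM in wild type and at 12.4 and 12.2 CPM in HSF1-pLVX libraries (log2 fold change -0.40 ± 0.12 SE, adjusted p = 0.00792). It shares 22.6% of its counted bases with other genes, 19.9% on the same strand. PSMD5 was also called lower, with a log2 fold change of -0.33 (adjusted p = 0.00297). Both calls were lost without HSF1-pLVX replicate 2, with log2 fold changes of -0.38 (adjusted p = 0.0748) and -0.29 (adjusted p = 0.0611). PSMD10, also known as the oncoprotein gankyrin, had overlapping variants at 33.7 and 35.3 CPM against 37.0 and 30.2 CPM and a log2 fold change of -0.03, which turned to 0.11 without HSF1-pLVX replicate 2 and to 0.03 with scaling by library size only.

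PSMC3IP, the recombination factor matched by its symbol, was at 2.82 and 3.77 CPM against 6.09 and 5.49 CPM and was called higher (log2 fold change 0.82 ± 0.21 SE, n = 2 per group; edgeR, adjusted p = 0.00318). It shares 29.9% of its counted bases with MLX on the other strand.

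**Figure D3:**
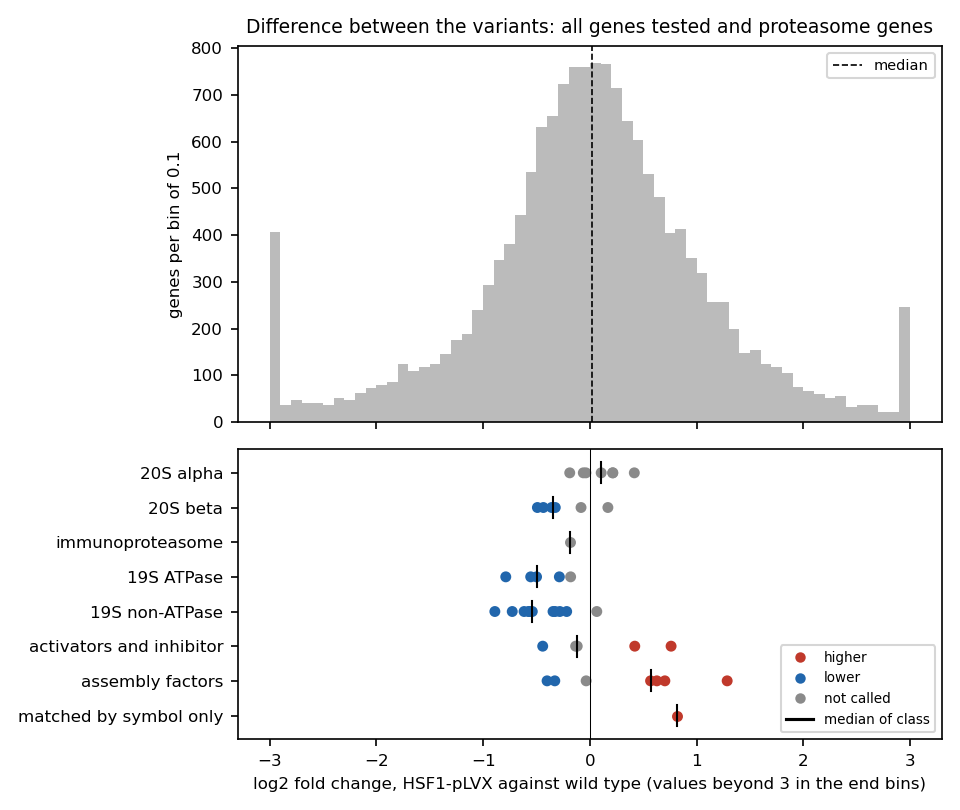
Upper panel, log2 fold changes of all 15830 tested genes in HSF1-pLVX against wild type cells (bins of 0.1; values beyond 3 are in the end bins; dashed line, median at 0.02). Lower panel, the tested proteasome genes by class on the same axis (point, gene; short line, class median), where the 19S medians are at -0.50 and -0.54, the alpha median is at 0.11 and the median of the assembly factors is at 0.57.

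Few reads were counted at related sequences. The treatment of multi-mapping reads is not given, so reads that match a gene and its copy may be missing from both. The 43 entries annotated as proteasome pseudogenes outside chromosome Y summed to 127 and 131 counts in wild type and 142 and 124 counts in HSF1-pLVX libraries, against 87192, 83139, 94111 and 75422 counts for the 49 genes. Of the 4 such entries tested, PSMC1P1 and PSMC2P1 were called lower, and PSME2P1 and PSME2P2 were not called. PSMC1P1, a pseudogene copy of PSMC1, held 44 and 41 against 27 and 26 counts (log2 fold change -0.94, edgeR adjusted p = 0.00895). PSMC2P1, a copy of PSMC2, held only 10 and 16 against 7 and 4 counts (-1.49, edgeR adjusted p = 0.0149). Both may share reads with their parent genes. Of the 43 tested genes, 22 shared no counted base with another gene, and 13 of these 22 were called, where 65.9% of all genes tested were called.

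The promoter motifs were then set beside the direction of change. Among called genes with a window, the antioxidant response core was present in 4 of 5 higher genes (PSME1, PSME2, PSMG1 and PSMG2) and in 5 of 19 lower genes (26.3%), and among tested genes not called in 3 of 12 (25.0%). The match in PSME1, displayed above, ends 78 bases before the transcription start of its window. Those in PSMG1 (TGACAGCGC), PSMG2 (TGACCCCGC) and PSME2 (TGACCCAGC) end 175, 31 and 167 bases before the starts of theirs. PSMG2 has another window (chr18:12702792-12703041 before its start) where no match was found. The matched windows of PSMG1, PSMG2 and PSME2 lie within the span of the counted gene. The matches in PSMD3 and PSMD12 end 29 and 157 bases before their starts. A pair of heat shock units, GAANNTTC or TTCNNGAA on either strand, was found in windows of 3 of 42 genes (PSMB5, PSMD6 and PSMD5, all called lower), or 7.14%, against 16.2% of all genes with a window.

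A row of 3 such units, alternating GAA and TTC with NN between them, the form that an HSF1 trimer binds and one that contains the pair, was in none of the 42 and in 0.608% of all genes. On both strands, the box CCAAT was in 20 of 42 genes (47.6%, against 39.7%) and the GC box GGGCGG in 29 of 42 (69.0%, against 48.3%). The search covers only these letters in these windows, and binding was not measured here.

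Of 34 other genes of the ubiquitin-proteasome system, 33 were tested, with 7 called higher and 21 lower, where 32.7% and 33.2% of all genes tested were called. Their median log2 fold change was -0.44. Cap subunits that the symbol rule leaves out went both ways. ADRM1, a ubiquitin receptor of the cap, was at 113.0 and 103.8 CPM in wild type against 78.7 and 81.2 CPM in HSF1-pLVX libraries and was called lower (-0.44, adjusted p = 0.000406). SEM1, a small lid subunit, was at 62.7 and 58.5 CPM against 68.1 and 73.7 CPM and was called higher (0.23, adjusted p = 0.0317). POMP, the maturation factor that works after PSMG1 to PSMG4 in core assembly, was at 97.8 and 104.4 CPM against 72.0 and 71.1 CPM and was called lower (-0.50, adjusted p = 0.000110), opposite to those 4 genes. PAAF1, a chaperone of the cap base, was called higher (0.67, adjusted p = 3.75e-05).

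Among transcription factors, NFE2L1, the regulator of subunit genes, was at 584.1 and 526.4 CPM in wild type against 356.5 and 386.2 CPM in HSF1-pLVX libraries (-0.58 ± 0.10 SE, adjusted p = 0.000123). NFE2L2 was at 99.9 and 98.4 CPM against 145.9 and 144.9 CPM (0.55 ± 0.08 SE, adjusted p = 4.44e-05). It shares 20.9% of its counted bases with other genes, 17.6% on the same strand. The 2 factors thus moved in opposite directions with no overlap of the variants. Of all genes tested, 41.0% had HSF1-pLVX lower without overlap and 42.1% had it higher. IRF1, a factor of the interferon response, was at 66.2 and 65.3 CPM against 126.9 and 121.2 CPM and was called higher (0.92, adjusted p = 2.74e-07). Of its counted bases, 22.0% are shared with genes on the other strand. NLRC5, an activator of MHC class I genes, was at 23.4 and 20.4 CPM against 15.1 and 12.8 CPM and was called lower (-0.65, adjusted p = 0.000300). NFE2L3, a relative of NFE2L1, was also called lower (-0.78, adjusted p = 1.51e-06).

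The polyubiquitin gene UBB was at 109.3 and 96.0 CPM in wild type against 81.5 and 82.1 CPM in HSF1-pLVX libraries and was called lower (-0.33, adjusted p = 0.00489). It shares 28.4% of its counted bases with a gene on the other strand. RPS27A, which encodes ubiquitin fused to a ribosomal protein, was at 442.9 and 426.0 CPM against 754.6 and 893.9 CPM and was called higher (0.92, adjusted p = 2.83e-06). UBA1, the main ubiquitin-activating enzyme, was called lower (-0.59, adjusted p = 6.97e-05).

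The factors that extract substrates and bring them to the cap were mostly lower. The segregase VCP and its cofactors NPLOC4, UFD1 and NSFL1C were all 4 called lower, where 33.2% of all genes tested were. Their log2 fold changes lay between -0.92 and -0.57. The shuttle factor RAD23B had the largest change of the list, at 483.4 and 516.4 CPM in wild type against 209.0 and 190.3 CPM in HSF1-pLVX libraries (-1.32 ± 0.10 SE, adjusted p = 2.44e-08). ZFAND2A, a stress-induced zinc finger protein that binds the proteasome, was at 13.5 and 17.3 CPM against 7.33 and 7.85 CPM (-1.03, adjusted p = 2.38e-05), and ZFAND5 was also called lower (-0.92). Of the deubiquitinases that dock on the cap, USP14 was called lower (-0.80, adjusted p = 1.43e-06) and UCHL5 higher (0.76, adjusted p = 9.15e-06).

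**Figure D4:**
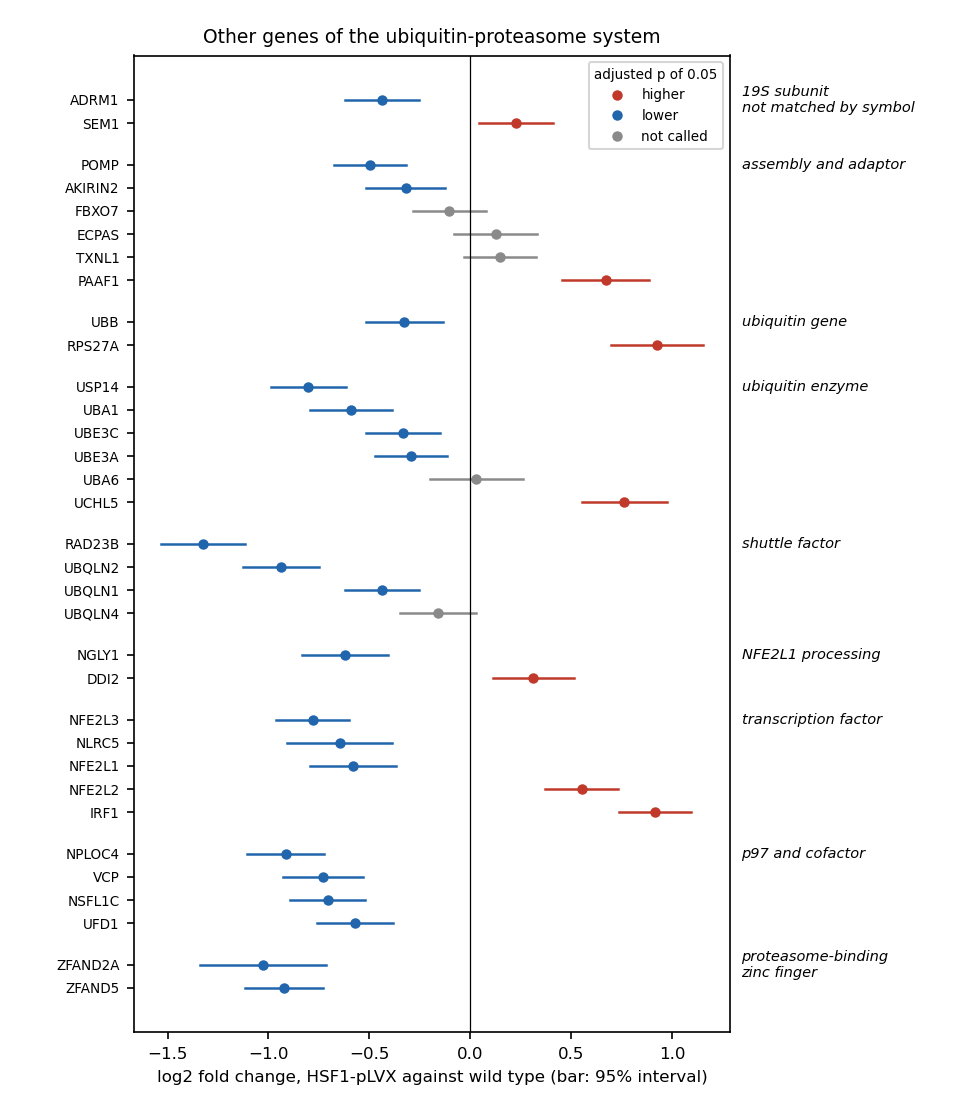
Log2 fold change of 33 tested genes of the ubiquitin-proteasome system outside the symbol rule in HSF1-pLVX against wild type cells (point, edgeR estimate from 2 libraries per group; bar, 95% confidence interval), grouped by role and coloured by the call at an adjusted p of 0.05. The 4 genes of VCP and its cofactors lie left of 0, between -0.92 and -0.57, and the shuttle factor RAD23B has the lowest value, -1.32.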

How the data were processed

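Paired-end RNA-seq was performed on 2 wild type and 2 HSF1-pLVX replicates of MCF10A cells, grouped by their labels. The authors deposited raw counts per gene (hg38, GENCODE release 26), made with HISAT2 2.0.5, SAMtools 1.13 and featureCounts 1.6.5 per the labels. How featureCounts treated strand and multi-mapping reads is not given in the sources used here. The authors also deposited a summary table of log2-scale values normalized with DESeq2 1.32.0, used only for the list of symbols and as an alternative. The variance-stabilizing transformation of the counts returned its values to within 5.8e-05. Gene length was the authors' sum of exon bases, which need not equal the length of the transcripts expressed.

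The quasi-likelihood test of edgeR 4.0.16 (R 4.3.3) was run on the counts after TMM normalization and filterByExpr, without a replicate block. Genes were called at 0.05 after Benjamini-Hochberg adjustment over 15830 genes. CPM are counts per library size after TMM. Fold changes are fitted estimates with SE. A chi-square of 6.62 and 8.04 per degree of freedom showed that replicates differed beyond sampling noise. An exact permutation test of 2 against 2 libraries cannot go below 0.33, so the p-values rest on a spread shared between genes and cover only the spread between these replicates. The test was tried on simulated data first.

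Members and lists were chosen with earlier results of these data known. The genes named were the catalytic, immunoproteasome and PSME1 and PSME2 subunits, the highest and lowest of each class, genes changed at least 2-fold, those outside the filter, and, of the related genes, NFE2L1, NFE2L2, POMP, ADRM1, SEM1, UBB and RPS27A; other genes were named after their values were seen. Alternatives were DESeq2 1.42.0, scaling by library size, no filter on low counts, the replicate block, the deposited normalized values and each library left out. Some genes of the related list are not reported here.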

Additional observations from a re-analysis of the deposited data

How the results depend on the processing

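Of the 28 called genes, PSMC3IP included, 26 were called under every setting with 4 libraries and 20 when any 1 library was left out, and none changed sign. With scaling by library size only, 1 alpha and 1 beta gene were called higher, and the median log2 fold changes were 0.0799 for all genes, 0.166 for the alpha, -0.28 for the beta, -0.44 for the 19S ATPase, -0.0562 for the activator and 0.63 for the assembly genes. With that scaling PSMA5 (0.0226) and PSMD10 (0.0269) turned positive, and over the libraries left out in turn PSMD10 ran from -0.19 to 0.112 and PSMD4 from -0.0092 to 0.151. The cause was not tested. Leaving out each library gave 0 to 1 alpha and 0 to 1 beta genes called higher and 0 to 2 assembly factors called lower. The medians then ran from 0.0424 to 0.112 (alpha), -0.41 to -0.27 (beta), -0.54 to -0.44 (19S ATPase) and -0.18 to -0.02 (activators). Replicates with the same number share no stated culture or day, and the correlation of their deviations was -0.11 over 9672 genes above 8 CPM. With the replicate number as a block 5138 genes were called higher and 5171 lower, and of the called proteasome genes PSMD6 alone was not called (adjusted p = 0.0514). With the crossed pairing, added after seeing the data, 5429 genes were called higher and 5487 lower, and among alpha genes 2 were called higher and 1 lower. Leaving 1 library in a group assumes that it varies like the other group.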
